A study of Mus musculus with 4 samples.

Results

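The enzymes that write, copy and remove DNA methylation were examined in ATAC-seq peak lists from visceral fat of 8-week-old mice of the outbred CD-1 stock. The set held 10 genes, Dnmt1, Dnmt3a, Dnmt3b, Dnmt3l, Uhrf1, Tet1, Tet2, Tet3, Tdg and Zfp57, out of 21000 coding genes with a curated RefSeq start site. They were chosen for their function. For each gene, peaks were collected within 500 bp of any curated start site, and from 10 kb upstream of the first start site to the gene end. All coordinates are those of mm10. ATAC-seq uses a transposase that inserts adapters into open chromatin, so that pile-ups of reads mark accessible DNA. The control group held 2 libraries from descendants of dams injected with sesame oil. The BPA group held 2 libraries from descendants of dams given a daily injection of the plasticiser bisphenol A into the abdomen, at 50 mg/kg. Injections ran from embryonic day 7.5 to 13.5 in both, and the animals measured were not dosed themselves. The generation of the BPA animals is given differently in the labels and in the study's text, and neither sex nor batch is labelled. The deposited list of BPA 2 carries another replicate number in its name than the label does.

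DNA methylation in mammals sits mainly on cytosines of CpG pairs. Dnmt1 copies the mark onto the new strand after replication, and Uhrf1 recognises the half-copied site and brings Dnmt1 to it. Dnmt3a and Dnmt3b place new methylation, and Dnmt3l is an inactive relative that assists them and is best known from germ cells. The dioxygenases Tet1, Tet2 and Tet3 oxidise methylcytosine, and Tdg cuts out the oxidised bases so that repair can restore cytosine. Zfp57 is a zinc finger protein that keeps methylation at imprinted control regions through Trim28. In adipose tissue these enzymes act in adipocytes, vascular cells, immune cells and progenitors alike. A peak in bulk tissue cannot tell a site that is open in more cells from one that is more open in each cell.

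The lists held between 72375 and 98060 peaks. A promoter peak was found at between 61.4% and 67.4% of coding genes per library. The list of BPA 2 was the longest, and its median peak width of 780 bp stood apart from 456 to 567 bp in the other libraries. Read totals are not in the lists, but the number of reads or fragments stacked at each summit, the pile-up, was solved from the deposited fold and p-value. At the best promoter peak of the 10 genes the median pile-up was 49.5 and 40 in controls 1 and 2, and 52.5 and 231.5 in BPA 1 and 2. For a median gene the pile-up in BPA 2 was 4.39 times the mean of the other libraries, and the local background 3.21 times. All 7 adipocyte marker promoters were open in all 4 libraries, whereas none of 3 hepatocyte marker promoters had a peak. Of 6 endothelial marker promoters, 2 had a peak in each control library and 6 in each BPA library. With 2 libraries per group an exact two-sided permutation test cannot go below a p-value of 0.333, so no test between groups was run and the values are set beside the spread between replicates.

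All 10 genes carried a promoter peak in all 4 libraries, against 57.9% of coding genes. No promoter of the set was open only in both BPA libraries, a pattern found at 2.51% of coding genes, nor only in both control libraries, which was found at 0.433%. The best promoter peak of each gene was ranked by its −log10 q-value within its own list, as a percent of the list, so that a low rank is a strong peak. Dnmt1, Dnmt3b, Uhrf1, Tet2, Tet3 and Tdg had ranks under 20% in every library. Dnmt3a, Dnmt3l and Tet1 had at least 1 library beyond 40%, and their spread between replicates was wide. The set as a whole ranked behind the typical open promoter, with member medians between 9.01% and 19.4% per library against medians between 5.94% and 9.77% for all coding genes open in all 4 libraries.

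**Figure D1:**
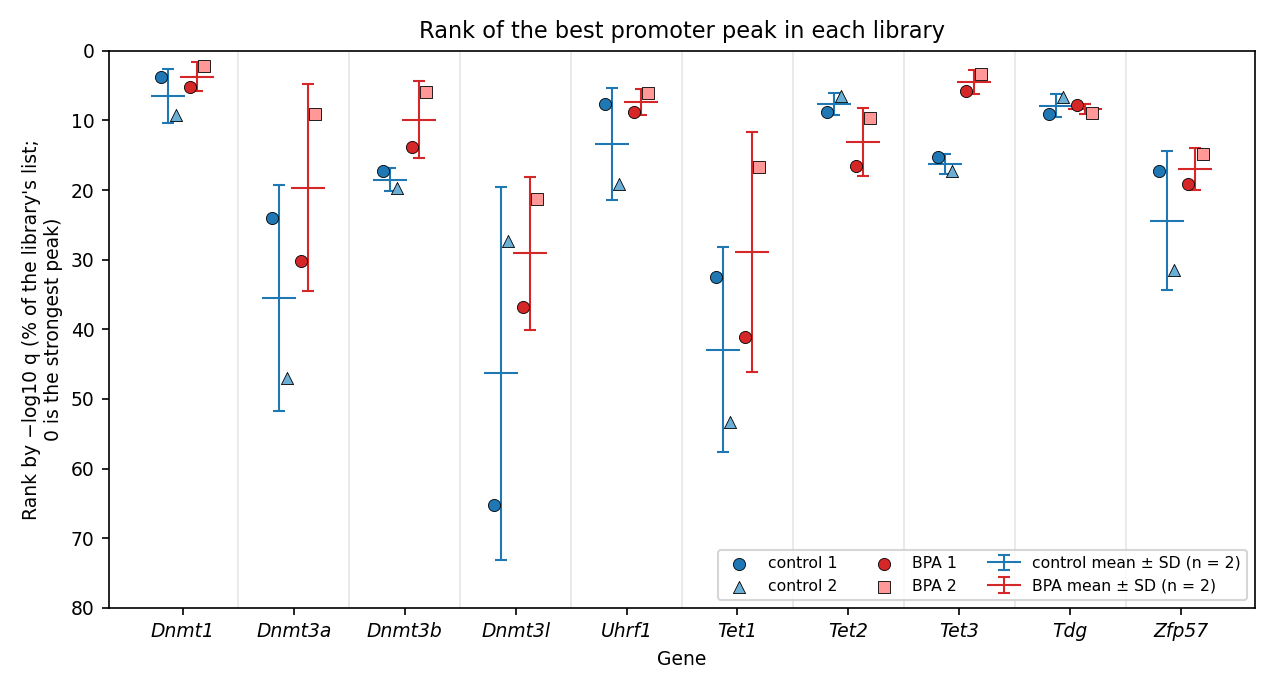
Rank of the best promoter peak of each of the 10 genes by −log10 q (y axis, percent of the library's list, strongest at the top) in the 4 libraries (points), with the mean ± SD of each group of 2 (bars). Tet3 and Dnmt3b show both BPA points above both control points, Tet2 shows the opposite order, and the points of the groups overlap in the remaining 7 genes.

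Dnmt1, the maintenance enzyme, had the best-ranked promoter of the set in 3 of 4 libraries, with Tet2 and Tdg ahead in control 2. At Dnmt1 the promoter peak ranked at 3.72% and 9.20% in controls 1 and 2, and 5.21% and 2.19% in BPA 1 and 2. The control 1 value lay between those of BPA, so the groups overlapped, with means of 6.46% ± 3.88 (SD, n = 2) in controls and 3.70% ± 2.14 in BPA. Uhrf1, the partner that recruits Dnmt1, ranked at 7.67%, 19.1%, 8.72% and 6.002% in the same order of libraries. Only control 2 stood apart there. In control 2 the 2 Uhrf1 start sites, which lie 976 bp apart, had separate peaks, at a rank of 40.03% over the upstream site and 19.1% over the downstream site, while a single peak of 1429 to 1763 bp spanned both sites in the other 3 libraries.

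Among the de novo enzymes, the Dnmt3b promoter gave groups that did not overlap. Its peak ranked at 17.3% and 19.7% in controls 1 and 2, and 13.8% and 5.94% in BPA 1 and 2. The mean was 18.5% ± 1.64 (SD, n = 2) in controls and 9.88% ± 5.58 in BPA, a difference of -8.62 percentage points. The difference was larger than the SD of either group, and BPA 1 was nearer to the controls than to BPA 2. The Dnmt3a promoter ranked at 24.1%, 47.0%, 30.2% and 9.14%, and the groups overlapped. Dnmt3l, the inactive cofactor, ranked at 65.3%, 27.4%, 36.9% and 21.4%. This was the weakest promoter of the set in control 1, where 14 reads or fragments were stacked at the summit (exact Poisson 95% interval 7.65 to 23.5, counting error only), and 22 were stacked in BPA 1 (13.8 to 33.3). The intervals of these libraries overlapped.

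The 3 TET genes went different ways. The best promoter peak of Tet3 ranked at 15.3% and 17.3% in controls 1 and 2, and 5.75% and 3.30% in BPA 1 and 2. Both BPA libraries were ahead of both controls, with means of 4.52% ± 1.73 (SD, n = 2) and 16.3% ± 1.40 and a difference of -11.7 percentage points. The BPA 2 rank came from the upstream start site and the others from the downstream site. At the downstream site alone, the BPA mean was 5.17% ± 0.81 and the difference -11.1 percentage points. At the start site of Tet3 that ranked best in controls, the pile-up was 64 in control 1 (49.3 to 81.7), 56 in control 2 (42.3 to 72.7), 125 in BPA 1 (104 to 149) and 388 in BPA 2 (350 to 429). These intervals too cover counting error only. The Tet2 promoter ranked at 8.73%, 6.51%, 16.5% and 9.62%, so both controls were ahead, with means of 7.62% ± 1.58 in controls and 13.1% ± 4.87 in BPA. The gap between the nearest libraries, control 1 and BPA 2, was smaller than the SD of either group. Tet1 ranked at 32.5%, 53.3%, 41.1% and 16.7%, with overlap between the groups.

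Tdg, the glycosylase that cuts out oxidised methylcytosine, had the promoter whose rank differed least between groups, with ranks of 9.08%, 6.66%, 7.81% and 8.89% and a difference of 0.48 percentage points. The sign of that difference turned in 4 alternatives, to -4.07 when ranked by fold, and the Tdg fold itself had a ratio of 1.65. Zfp57 ranked at 17.3%, 31.5%, 19.1% and 14.9%, and the control 1 value lay between both BPA values. In all, 2 of 10 genes ranked better in both BPA libraries than in both controls, where 40.7% of coding genes open in all 4 libraries did so, and 1 of 10 ranked better in both controls, where 18.7% did so. The median difference over the set was -8.02 percentage points, against -1.84 over all coding genes open in all 4 libraries, and 8 of 10 genes against 64.6% of all had a better mean rank in BPA. Of the 8, Dnmt3l turned to 1.75 without control 1 and Tet1 to 3.10 with GENCODE start sites. The set was thus not set apart from other promoters by the count of genes whose groups do not overlap. That count moved with the library left out: it was 7 genes without control 1, where 55.0% of coding genes open in the other libraries did so, 4 without control 2 against 50.7%, 8 without BPA 1 against 59.5%, and 2, Dnmt3b and Tet3, without BPA 2 against 43.4%. The count of genes ahead in controls, which is Tet2, became 2 without control 1, against 27.2%. Both counts can only stay or rise when a library is left out, because the remaining ranks do not change. Without control 2 the median difference was -2.17 over the set and -1.32 over all coding genes.

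The fold of a promoter peak over its local background gave a different picture from the rank. Every one of the 10 genes had a higher fold in both BPA libraries than in both controls, but so did 86.4% of coding genes open in all 4 libraries, and none of the 10 had a higher fold in both controls, against 0.518%. The ratio of the BPA mean to the control mean had a median of 1.60 over the set and 1.52 over all these coding genes, the latter a median shift of 0.61 on the log2 scale. Relative to that shift, 6 of 10 genes lay above the median of all genes. Tet3 and Dnmt3b lay highest, at 0.38 for each on the log2 scale, and Tet2 lowest, at -0.26. The Tet3 fold was 3.96 and 4.89 in controls 1 and 2, and 8.86 and 8.67 in BPA 1 and 2, a ratio of 1.98. The BPA 2 value came from the upstream start site of Tet3. The other values came from its downstream site, where the BPA 2 fold was 7.81, so the ratio mixes both sites. The Dnmt3b fold was 5.40, 6.48, 11.0 and 12.5, also a ratio of 1.98. The Tet2 fold was 4.66, 6.26, 7.11 and 6.74, a ratio of 1.27. Thus the direction at Tet2 depended on the scale, with a better rank in controls and a higher fold in BPA. Dnmt1 had the closest replicates, with a fold of 8.36 and 8.44 in controls and 13.4 in both BPA libraries.

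**Figure D2:**
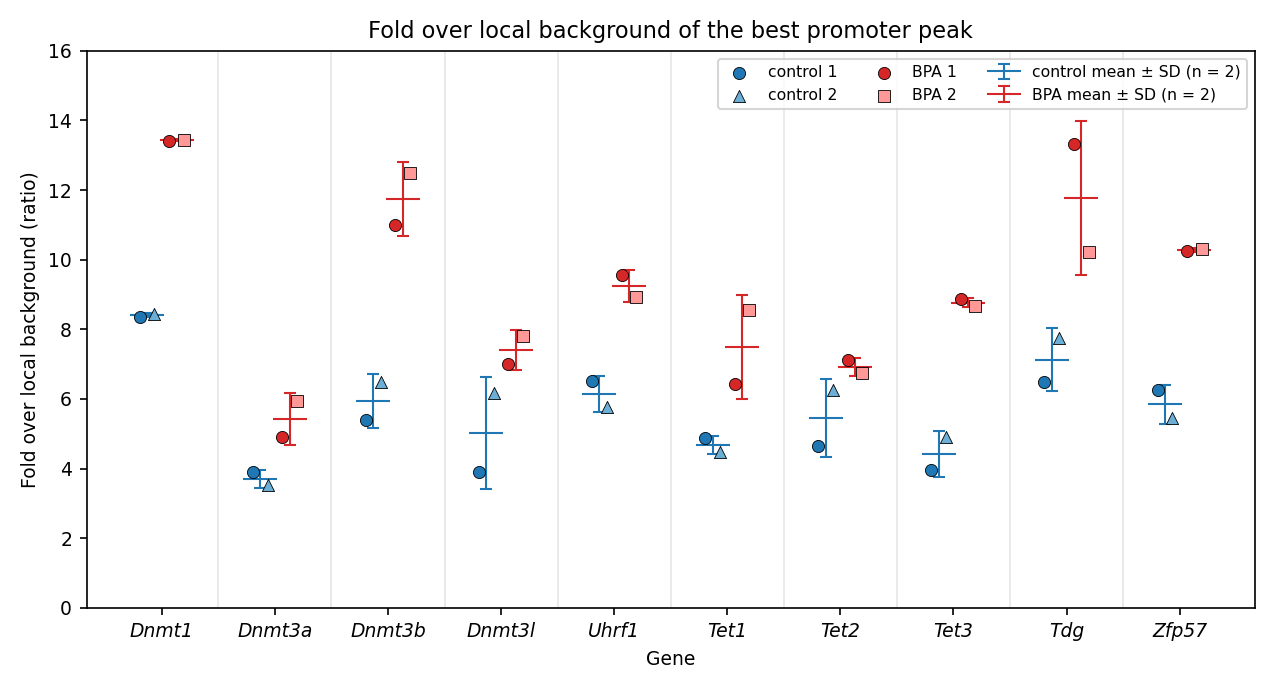
Fold over local background (y axis, ratio) of the best promoter peak of each gene in the 4 libraries (points), with the mean ± SD of each group of 2 (bars). Both BPA points lie above both control points in all 10 genes, as they do for 86.4% of coding genes open in all 4 libraries.

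The next question was which promoter each gene used. The 10 genes have 22 distinct curated start sites. A peak lay within 500 bp of 17 of them in all 4 libraries, against 55.8% of the start sites of coding genes, and of the other 5 in none. No start site was open in some libraries and closed in others, so no difference in promoter choice between control and BPA was detectable at this depth. When the summit itself had to lie within 500 bp, 11 start sites had it in all 4 libraries, and some others had it in some libraries only.

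**Figure D3:**
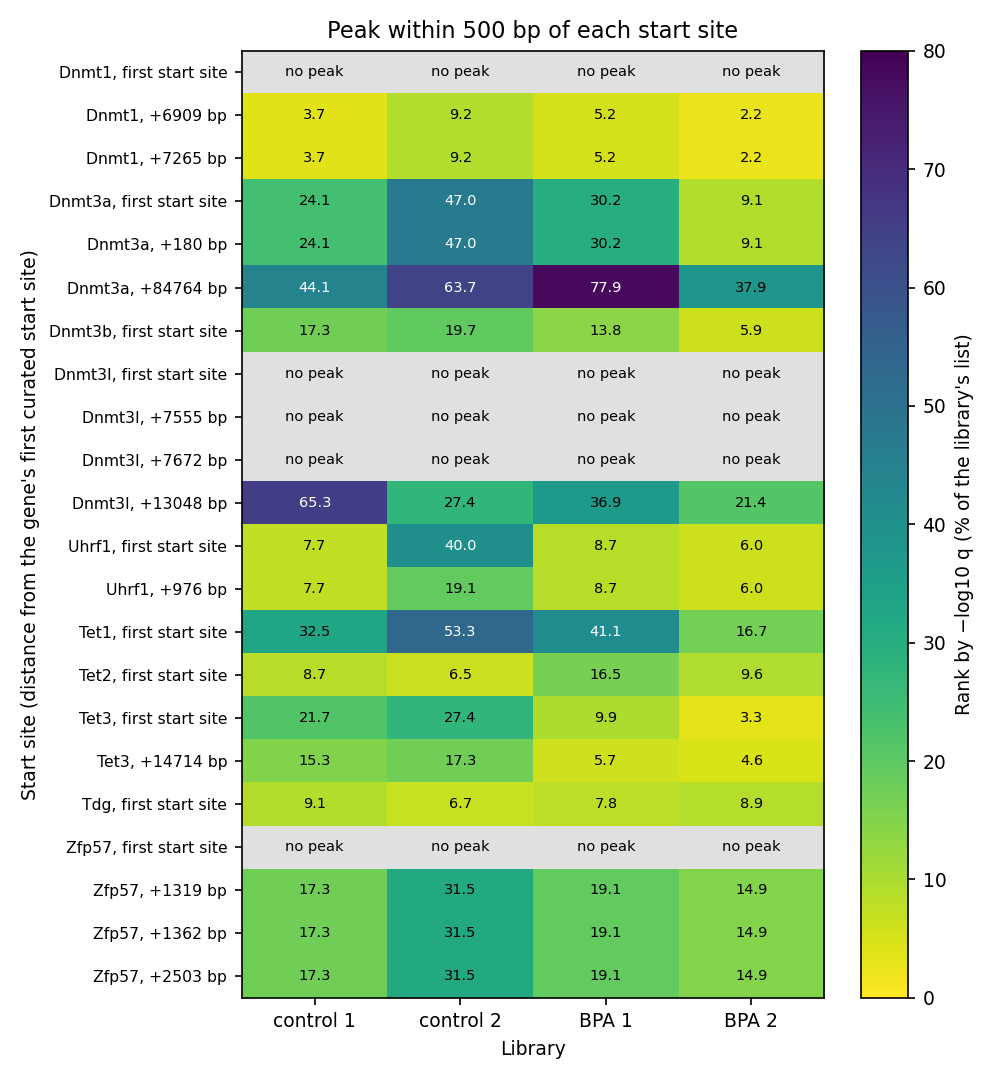
Peak within 500 bp of each of the 22 curated start sites (rows, named by the distance from the gene's first start site) in each library (columns). Cells give the rank by −log10 q as a percent of the list, and grey cells have no peak. The 5 grey rows, at Dnmt1, Dnmt3l and Zfp57, are grey in all 4 libraries.

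At Dnmt1, on chromosome 9 and transcribed from the minus strand, the first start site at 20959888 had no peak in any library. The start sites 6909 and 7265 bp downstream shared a peak in all 4 libraries, with its summit in intron 1 of the longest form. Dnmt1 is known to use a separate first exon in oocytes. At Dnmt3a, on the plus strand of chromosome 12, both sites of the long form at 3806980 and 3807160 were open, as was the internal start site 84764 bp downstream that gives the short form. The internal promoter was weak, at 44.1%, 63.7%, 77.9% and 37.9% of the lists, and its groups overlapped, with means of 53.9% ± 13.9 (SD, n = 2) in controls and 57.9% ± 28.3 in BPA. At Dnmt3l only the last of 4 start sites, at chromosome 10 position 78055335, was called, and its summits lay 401 to 570 bp upstream of the site. A peak near the first Dnmt3l site in control 1, control 2 and BPA 2 lay at the promoter of the neighbouring Aire gene.

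Both start sites of Tet3, on the minus strand of chromosome 6 and 14714 bp apart, were open in all libraries and ranked better in BPA. The upstream site at 83456392 ranked at 21.7%, 27.4%, 9.86% and 3.30%, and the downstream site at 83441678 ranked at 15.3%, 17.3%, 5.75% and 4.602%. The downstream site lies 77 bp from the start of the noncoding gene B230319C09Rik, so its peak cannot be assigned to Tet3 alone. Zfp57 was open at the start sites 1319 and 1362 bp downstream of the first, with the same peak reaching to 500 bp of a further site, and closed at the first site at chromosome 17 position 37001163. Dnmt3b, Tet1, Tet2 and Tdg each have a single curated start site, and each was open. The Tet1 summits lay 270 to 1050 bp downstream of its site, and within 500 bp of it in only 2 of 4 libraries.

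Promoter sequences were available from RefSeq for 19 of the 22 start sites, on GRCm38.p6, as 250 bases before to 50 after each start. A start site with a peak within 500 bp in all 4 libraries is called used here, and the peak need not lie over the window shown. Windows are given for used and unused start sites of Dnmt1 and Zfp57, for the called Dnmt3l site, and for the promoters of Dnmt3b, Tet2 and Tet3, whose ranks did not overlap between groups. All are written 5′ to 3′ on the strand of the gene, and CpG pairs are in capitals. The unused first site of Dnmt1 is chr9:20959839-20960138, and the used sites are chr9:20952930-20953229 and chr9:20952574-20952873.
Dnmt1 unused site: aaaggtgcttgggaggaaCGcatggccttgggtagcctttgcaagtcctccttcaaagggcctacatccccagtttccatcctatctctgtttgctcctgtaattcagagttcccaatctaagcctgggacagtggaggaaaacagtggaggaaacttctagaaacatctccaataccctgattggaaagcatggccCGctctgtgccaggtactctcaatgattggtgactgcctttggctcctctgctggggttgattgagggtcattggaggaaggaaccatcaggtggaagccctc
Dnmt1 used site, upstream: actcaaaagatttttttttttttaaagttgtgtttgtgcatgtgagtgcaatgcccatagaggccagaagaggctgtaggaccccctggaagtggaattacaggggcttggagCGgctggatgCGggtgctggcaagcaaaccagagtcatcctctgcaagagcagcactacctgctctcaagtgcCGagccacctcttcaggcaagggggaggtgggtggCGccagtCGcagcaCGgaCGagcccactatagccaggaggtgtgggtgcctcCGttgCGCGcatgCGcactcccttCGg
Dnmt1 used site, downstream: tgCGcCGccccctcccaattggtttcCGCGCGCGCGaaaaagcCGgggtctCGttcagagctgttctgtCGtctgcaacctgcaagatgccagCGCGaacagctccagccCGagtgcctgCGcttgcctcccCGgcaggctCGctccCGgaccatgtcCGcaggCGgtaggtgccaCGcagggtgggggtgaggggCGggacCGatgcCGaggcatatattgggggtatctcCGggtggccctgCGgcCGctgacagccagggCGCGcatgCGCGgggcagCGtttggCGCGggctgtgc
The Dnmt1 windows held 2 CpG pairs at the unused site and 12 and 33 at the used sites. The Zfp57 windows are chr17:37000913-37001212 at the unused site and chr17:37002275-37002574 at a used site.
Zfp57 unused site: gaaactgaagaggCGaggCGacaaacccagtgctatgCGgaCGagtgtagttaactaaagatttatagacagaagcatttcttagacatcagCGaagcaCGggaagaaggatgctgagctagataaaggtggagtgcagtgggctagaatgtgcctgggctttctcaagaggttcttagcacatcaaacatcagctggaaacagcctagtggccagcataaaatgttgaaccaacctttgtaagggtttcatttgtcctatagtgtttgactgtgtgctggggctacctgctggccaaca
Zfp57 used site: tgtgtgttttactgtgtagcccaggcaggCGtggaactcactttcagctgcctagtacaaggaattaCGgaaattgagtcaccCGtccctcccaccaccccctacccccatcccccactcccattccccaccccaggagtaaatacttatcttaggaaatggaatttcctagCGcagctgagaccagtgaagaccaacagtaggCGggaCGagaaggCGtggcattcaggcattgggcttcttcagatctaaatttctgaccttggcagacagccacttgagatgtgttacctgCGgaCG
They held 6 and 9 CpG pairs. The called Dnmt3l site, chr10:78055085-78055384, held 3 CpG pairs.
Dnmt3l called site: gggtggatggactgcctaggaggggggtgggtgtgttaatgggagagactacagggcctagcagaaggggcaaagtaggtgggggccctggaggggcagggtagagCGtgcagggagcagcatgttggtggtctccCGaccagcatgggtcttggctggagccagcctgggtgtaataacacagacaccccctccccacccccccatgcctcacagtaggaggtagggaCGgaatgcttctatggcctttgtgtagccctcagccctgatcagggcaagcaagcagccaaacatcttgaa
The Dnmt3b window is chr2:153649199-153649498 with 30 CpG pairs, the Tet2 window chr3:133544341-133544640 with 57, and the Tet3 window, at the downstream start site, chr6:83441629-83441928 with 22.
Dnmt3b: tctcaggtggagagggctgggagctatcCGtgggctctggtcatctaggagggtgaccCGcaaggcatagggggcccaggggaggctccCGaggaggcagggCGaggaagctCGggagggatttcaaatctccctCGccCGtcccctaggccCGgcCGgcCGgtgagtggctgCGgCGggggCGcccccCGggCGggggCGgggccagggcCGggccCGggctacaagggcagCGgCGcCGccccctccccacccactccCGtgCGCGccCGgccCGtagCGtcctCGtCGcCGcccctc
Tet2: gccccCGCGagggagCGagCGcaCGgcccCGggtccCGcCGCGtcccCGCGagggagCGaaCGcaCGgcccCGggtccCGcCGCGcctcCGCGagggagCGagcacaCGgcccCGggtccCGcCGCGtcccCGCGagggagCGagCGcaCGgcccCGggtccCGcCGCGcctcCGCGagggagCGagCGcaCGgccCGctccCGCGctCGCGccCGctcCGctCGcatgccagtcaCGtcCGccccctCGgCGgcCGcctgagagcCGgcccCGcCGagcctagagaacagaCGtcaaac
Tet3 downstream site: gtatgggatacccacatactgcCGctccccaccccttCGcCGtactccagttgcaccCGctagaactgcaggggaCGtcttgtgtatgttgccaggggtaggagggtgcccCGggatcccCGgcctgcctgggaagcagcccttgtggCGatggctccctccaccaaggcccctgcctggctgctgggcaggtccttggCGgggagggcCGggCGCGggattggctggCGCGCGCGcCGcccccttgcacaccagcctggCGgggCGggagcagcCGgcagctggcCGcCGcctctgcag

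The used start sites were richer in CpG than the unused ones. The 15 windows of used sites held a median of 22 CpG pairs with a range of 3 to 57, the 4 windows of unused sites held a median of 5 with a range of 2 to 6, and all 32851 promoter windows held a median of 7. The ranges overlapped through the called Dnmt3l window and a Zfp57 window with 4 CpG pairs. A peak lay over the window itself in 3 libraries at that Dnmt3l site and in 1 library at that Zfp57 site, and the 13 windows with a peak over them in all 4 libraries held 9 to 57 CpG pairs. Tet2 was highest, with a ratio of observed to expected CpG of 1.17, and both long-form Dnmt3a windows held 46 and 47 CpG pairs. Short words were searched on both strands. The GC box GGGCGG was in 10 of 15 used and 2 of 4 unused windows and in 35.7% of all promoters, with up to 7 matches at Dnmt3a. The word CCAAT was in 6 of 15 used and 1 of 4 unused windows and in 37.4% of all. The Nrf1 core GCGCATGC was in both used Dnmt1 windows, as 2 overlapping matches on opposite strands in each, and in 2.71% of all promoters. The E2F words were rarer: TTTGGCGC was in the downstream used Dnmt1 window and in 0.514% of all, and TTTCCCGC was in no window of the set and in 1.07% of all. The TATA word TATAAA was in the unused Zfp57 window and in 13.6% of all. A match of letters is not evidence of a bound factor.

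The 10 loci spanned 628 kb and held 68 regions formed by merging overlapping peaks of any library. Of the 68, 21 were open in all 4 libraries, 10 in both BPA libraries only and 4 in both control libraries only. Across the genome, promoters included, 26.3% of merged regions were open in all 4 libraries, 9.40% in both BPA libraries only and 5.33% in both control libraries only. At promoters of the set lay 12 regions, and 56 lay elsewhere. Of the 56, 9 were open in all 4 libraries, 10 in both BPA libraries only, 4 in both control libraries only and 22 in a single library, 13 of which were from BPA 2. Dnmt3a held the most regions, 24 over 117 kb, followed by Tet3 with 14 over 104 kb, while Uhrf1 had no region other than its promoter. Peaks that overlapped by at least 50% of both replicates were called reproducible, and gave 16 regions in controls and 28 in BPA. Of these, 2 of 16 had no BPA peak, against 11.6% of reproducible control regions in the genome, and 6 of 28 had no control peak, against 19.9% of reproducible BPA regions. Both shares were near the background. Leaving out BPA 2 raised the control-specific count to 5 of 16, against 23.2% in the genome.

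**Figure D4:**
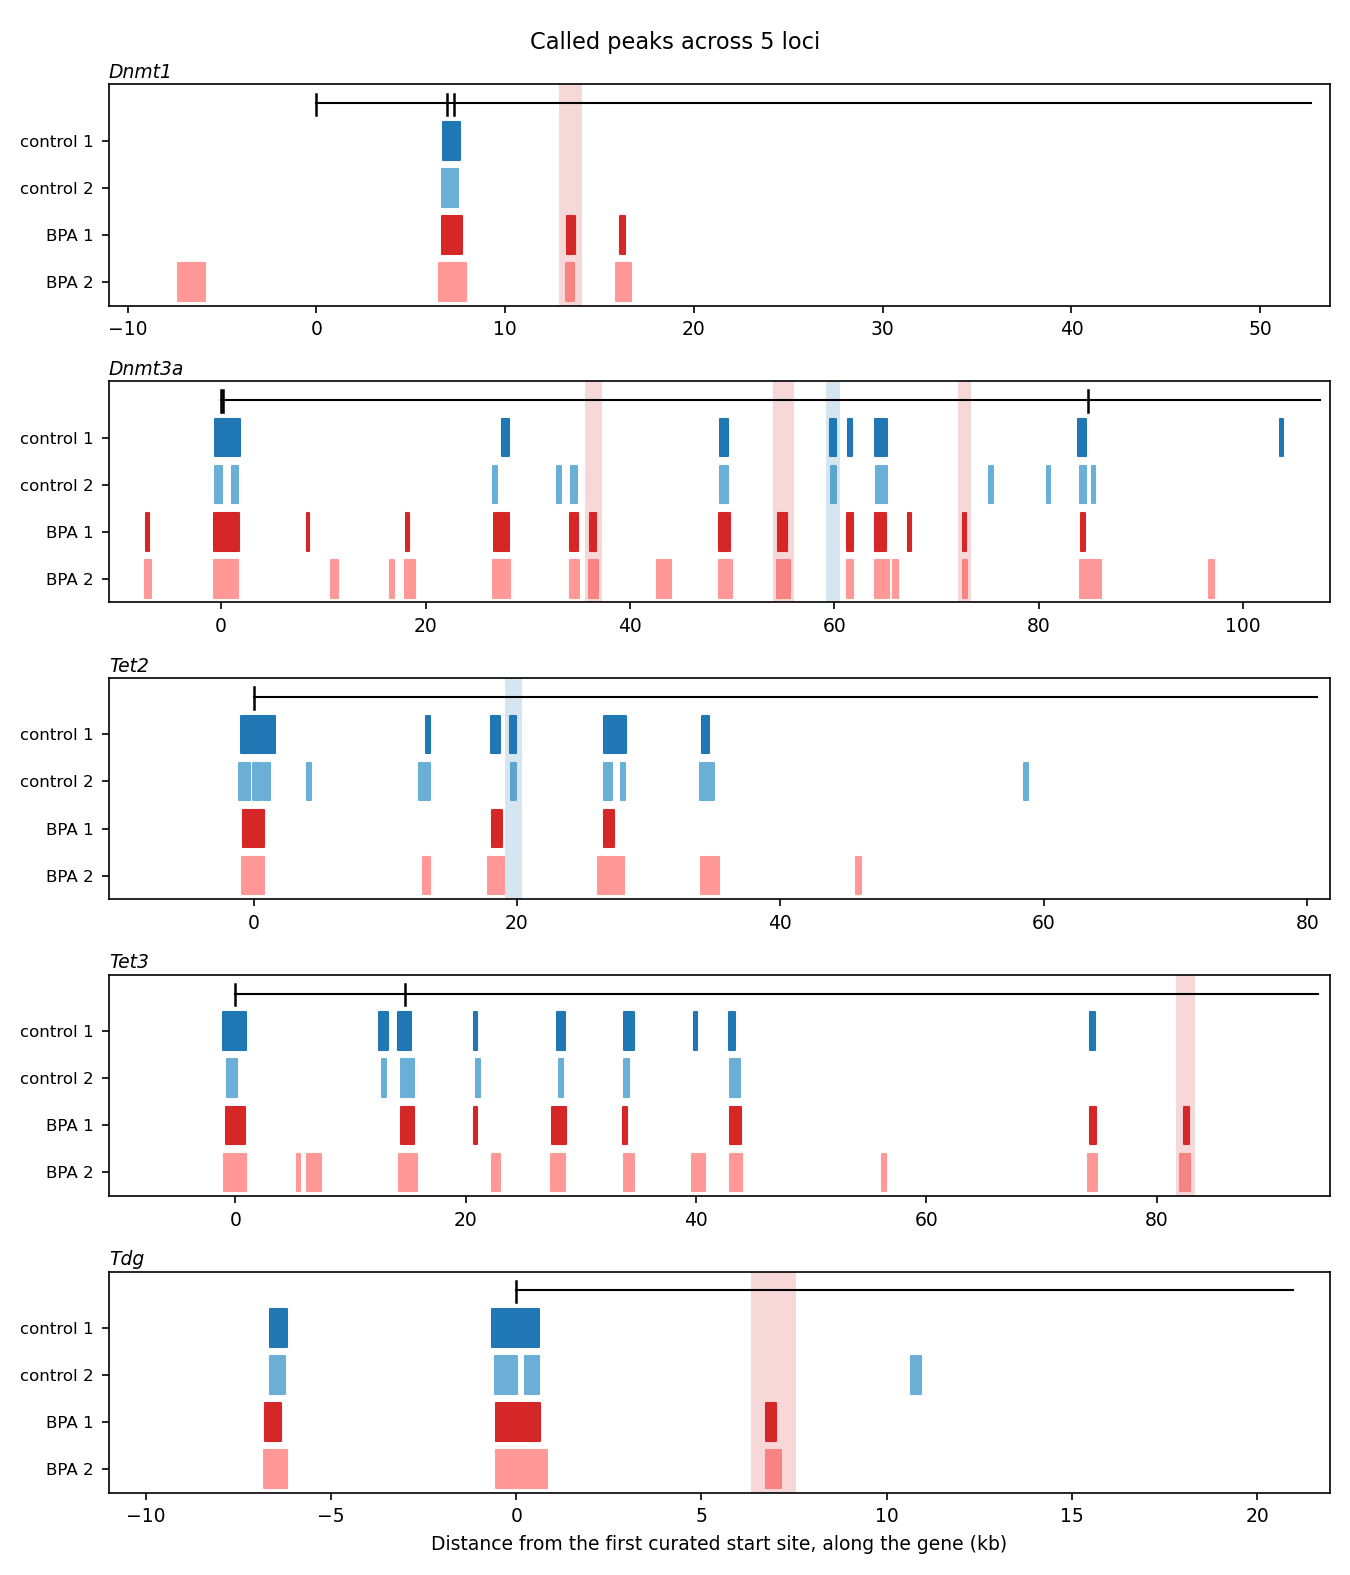
Called peaks (bars) in the 4 libraries over the 5 loci that held a group-specific region, by distance from the first curated start site along the gene (x axis, kb; vertical ticks mark curated start sites, and bars under 0.25 kb are drawn at that width). Red bands mark the 6 BPA-specific and blue bands the 2 control-specific regions.

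The BPA-specific regions were at Dnmt1, Dnmt3a, Tet3 and Tdg, and all 6 were intronic. At Dnmt1 the region chr9:20946213-20946660, in intron 1, ranked at 44.4% in BPA 1 and 68.7% in BPA 2, with folds of 6.36 and 3.67. A further Dnmt1 region in the same intron, chr9:20943227-20944007, was called in both BPA libraries, at 45.0% and 35.7%, but its peaks overlapped by less than 50%. At Tet3 the region chr6:83373486-83374333, in intron 9, ranked at 56.4% and 33.4%, with folds of 4.95 and 5.84. At Tdg the region chr10:82636578-82636983, in intron 1, was weak, at 90.9% and 85.6%. The 101 bases around the strongest summit of the Dnmt1 and Tet3 regions are shown on the plus strand, with CpG pairs in capitals, as the intronic sites that only BPA libraries called. They are chr9:20946290-20946390 and chr6:83373677-83373777, and each held 2 CpG pairs.
Dnmt1 intron 1: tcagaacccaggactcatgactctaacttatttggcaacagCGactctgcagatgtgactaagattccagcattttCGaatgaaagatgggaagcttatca
Tet3 intron 9: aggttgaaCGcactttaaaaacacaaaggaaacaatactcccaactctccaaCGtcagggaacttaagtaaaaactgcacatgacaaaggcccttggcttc

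Dnmt3a held 3 BPA-specific regions and 1 of the 2 control-specific regions. The region chr12:3843001-3843809 in intron 2 ranked at 74.4% in BPA 1 and 43.4% in BPA 2, and chr12:3861329-3862669 in intron 3 at 74.9% and 44.6%. The latter covered the promoter of the antisense gene Dnmt3aos. The region chr12:3879517-3879909 in intron 6 was near the end of both lists, at 97.8% and 85.7%. The control-specific region, chr12:3866578-3867139 in intron 4, ranked at 38.7% in control 1 and 64.2% in control 2, with folds of 3.49 and 3.29. A stronger Dnmt3a site was open only in BPA but fell short of the 50% overlap: chr12:3799558-3800081, 7185 bp upstream of the first start site, ranked at 20.8% and 25.8% with folds of 11.1 and 8.63. This site and the further Dnmt1 region above were named after their values were seen. The other control-specific region was in intron 1 of Tet2, chr3:133524444-133524903, at 60.1% and 68.2% with folds of 3.43 and 3.53. Of the endothelial marker promoters, 4 of 6 (Pecam1, Cdh5, Tie1 and Erg) were open in both BPA libraries and neither control, against 2.51% of coding genes. The same pattern was found at 1 of 6 leukocyte markers, Cd68, and 1 of 3 epithelial markers, Cdh1. No marker was open in both controls only. BPA-specific regions are open in BPA by definition, so a shared direction links nothing. The part of cell types in the group-specific regions was not tested.

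Intronic regions open in all 4 libraries were found at Dnmt3a, Tet1, Tet2 and Tet3. The strongest at Dnmt3a, chr12:3855729-3856980 in intron 3, ranked at 11.1% and 37.4% in controls 1 and 2, and 10.4% and 7.54% in BPA 1 and 2, ahead of the gene's own promoter in every library. At chr12:3870926-3872348 in intron 4 the ranks were 34.6%, 25.9%, 21.1% and 14.8%, and at chr12:3833572-3835233 in intron 1 they were 25.8%, 63.8%, 22.6% and 14.6%. In both, BPA libraries ranked ahead of controls. In the intron 1 region the control peaks did not overlap, at 3834420-3835144 in control 1 and 3833584-3833980 in control 2. Their ranks thus belong to different sites, which the wider BPA peaks joined. In the intron 4 region the groups overlapped by fold. No share over all shared regions of the genome was computed for such orders. The Tet1 region chr10:62864979-62866705 in intron 2, at 17.4%, 6.48%, 18.9% and 11.1%, also ranked ahead of the Tet1 promoter in every library, and its groups overlapped. The Tet2 region chr3:133516094-133518246 in intron 1 ranked at 17.9%, 8.44%, 22.1% and 31.1%, so both controls were ahead by rank, as at the Tet2 promoter. By fold its groups overlapped, at 4.96 and 6.92 in controls 1 and 2, and 8.81 and 6.02 in BPA 1 and 2.

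Tet3 held an intronic region that went against its promoters. At chr6:83421820-83422739 in intron 3, the peak ranked at 11.7% and 19.6% in controls 1 and 2, and 72.1% and 83.1% in BPA 1 and 2. The fold was 6.82 and 6.19 in controls and 4.42 and 2.85 in BPA, so the region was stronger in both controls on either scale. The 86.4% with a higher fold in BPA is a share of promoters. No such share was computed for shared intronic regions. The neighbouring region in the same intron, chr6:83427713-83429000, ranked at 13.9%, 21.02%, 20.7% and 17.8% and its groups overlapped. At chr6:83412428-83413531 the ranks were 40.7%, 42.2%, 23.7% and 18.8%, ahead in BPA. Thus 3 sites within 1 intron of Tet3 gave 3 different orders of the groups by rank. By fold, the neighbouring region was higher in both BPA libraries, at 6.65 and 6.31 in controls and 8.22 and 7.07 in BPA. The region chr6:83412428-83413531 was so too, at 3.51 and 3.96 in controls and 5.40 and 4.74 in BPA. At Tdg the shared region 6493 bp upstream, chr10:82623026-82623662, lay at the promoter of 1190007I07Rik and is not a site of Tdg alone.

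Genes that work with the set were examined from a list of 53 by role, of which 52 had a curated start site. A promoter peak was present in all 4 libraries at 50 of 52, against 57.9% of coding genes. None was open in both libraries of one group only, against 2.51% of coding genes for BPA and 0.433% for controls. Dppa3, a germ line protector of methylation, had no peak in any library, and Setdb1, a histone methyltransferase recruited by Trim28, lacked one in BPA 1. Of the 50, 20 ranked better in both BPA libraries and 5 better in both controls, which is 40% and 10% against the 40.7% and 18.7% given above. The median difference was -1.57 percentage points.

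By role, all 8 readers of methylated DNA were open in all libraries, and 3 ranked better in BPA and 1, Mbd4, in controls. All 6 genes for TET partners and 2-oxoglutarate supply were open, and 4 ranked better in both BPA libraries. Ogt, a glycosyltransferase that binds TET proteins, ranked at 35.4%, 33.8%, 17.9% and 13.1%. Idh2, which makes the TET cofactor 2-oxoglutarate, ranked at 16.7%, 20.8%, 5.26% and 0.419%, while Idh1 overlapped, at 0.329%, 1.48%, 4.31% and 1.13%. All 12 base excision repair genes were open, with 5 ahead in BPA and 2, Xrcc1 and Smug1, ahead in controls. Apex1, the endonuclease at the abasic site, ranked at 10.3%, 5.15%, 7.63% and 7.04%, with overlap. Methyl group supply had 9 of 9 open with 3 ahead in BPA and 1, Mtr, ahead in controls, and the CpG island readers had 5 of 5 open with 3 ahead in BPA and 1, Cxxc1, in controls. Of 7 maintenance and de novo partners with a start site, 7 were open and 2, Ehmt2 and Ctcf, were ahead in BPA. Among 5 imprint and silencing partners, 3 were open in all libraries, and Trim28, the corepressor that Zfp57 recruits, overlapped at 3.30%, 2.25%, 4.18% and 1.94%. The 8 proliferation markers, which accompany Dnmt1 and Uhrf1 in dividing cells, were all open, with 3 ahead in BPA and 3 ahead in controls. For each role the shares over coding genes are the same: 57.9% were open in all 4 libraries. Of those, 40.7% ranked better in both BPA libraries and 18.7% in both controls. The roles hold few genes each, and no difference between roles was tested.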

How the data were processed

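Libraries were mapped to the control and BPA groups by their treatment labels. Per the submitters' processing notes and the study's methods, the authors trimmed reads with Trim Galore, mapped them to mm10 with Bowtie2 2.3.5.1, kept uniquely mapped reads, removed duplicates with SAMtools and called peaks per library, without pooling, with MACS2 2.2.7.1, whose options are not given in the sources used here. The deposited score and the deposited fold, a ratio over local background, are the authors' own, as are the −log10 q-value and the −log10 p-value they deposited. The deposited summit offset gave summit positions.

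Start sites came from curated RefSeq transcripts of GRCm38, which is mm10, and no peak extended beyond a chromosome. The rank was 100 times 1 plus the number of peaks with a higher −log10 q-value, divided by the list length. The gene's best-ranked peak was used. Pile-ups were solved from the fold and p-value under the Poisson model, with a largest relative error of 4.2e-06 over 52 promoter peaks, and intervals cover counting error only. Overlaps used bedtools 2.31.1, and other steps used Python 3.11.15, numpy 2.4.6, scipy 1.17.1, pandas 2.3.3 and matplotlib 3.10.9. Counting steps and the pile-up solution were checked on simulated data. Group-specific regions were reproducible regions with no peak, by 1 bp or more, in either library of the other group.

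All 10 members were named, with every group-specific region and up to 3 other shared regions per locus, and related genes up to 3 per role. 1 item that falls under the naming rule is not reported here. Members and lists were chosen with earlier results of these data known. The comparison of folds was chosen after seeing the data. Per the study's text the libraries came from 4 mice, and no batch is labelled. Alternatives covered the peaks kept, promoter width, summit, annotation, ranking column, overlap, locus length and each library left out.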

Additional observations from a re-analysis of the deposited data

How the results depend on the processing

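The presence of a promoter peak at all 10 genes in all 4 libraries held under most alternatives. It fell to 9 genes with −log10 q of at least 5, to 8 by summit, and to 6 with the best 20000 peaks of each library. In that setting 7 start sites were open in all 4 libraries, in place of 17. The start site count was 11 by summit, 40 with predicted RefSeq start sites and 49 with GENCODE start sites. With the best 20000 peaks, 4 of 52 related genes were open only in BPA and 1 only in controls. No share over all coding genes was computed for that setting. All 6 genes of the set that were still open in all 4 libraries had a higher fold in both BPA libraries.

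Genes ahead in both BPA libraries numbered 2. Among the 9 genes still open in all 4 libraries with −log10 q of at least 5, 6 were ahead in BPA. The count was 4 when ranked by fold, and 2 to 8 with 1 library left out. Genes ahead in both controls numbered 0 with −log10 q of at least 5 and 0 when ranked by fold, and 1 to 2 with 1 library left out. No shares over all coding genes were computed for the settings with fewer peaks or for the ranking by fold. Dnmt3b and Tet3 were among the genes ahead in BPA in all 13 alternatives. With a library left out this was fixed beforehand, because the ranks in the remaining libraries do not change. Only the other alternatives could have altered it. The median rank difference became -17.1 with −log10 q of at least 5 and -20.6 with the best 20000 peaks. It ranged from -11.05 to -2.17 with 1 library left out. In the cut lists a rank is a percent of the shorter list, and only 9 and 6 genes were open in all 4 libraries. The values of those settings are therefore not on the scale of -8.02, and no median over all coding genes was computed for them. Related genes open only in controls numbered 0 to 1 with 1 library left out, and no share over all coding genes was computed for this.

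Reproducible control regions numbered 5 with the best 20000 peaks, 29 with an overlap of 1 bp, 9 with 80% and 35 from 50 kb upstream. BPA regions numbered 16 with the best 20000 peaks, 15 with 80% and 56 from 50 kb upstream. Control-specific regions numbered 1 with −log10 q of at least 5, 1 with the best 20000 peaks, 4 with 1 bp, 1 with 80%, 7 against reproducible BPA peaks only, and 2 to 5 with 1 library left out. BPA-specific regions numbered 10 with 1 bp, 1 with 80%, 12 from 50 kb upstream and 19 against reproducible control peaks only. For specific regions, shares over the genome were computed only for the main setting and without BPA 2. Without a library its group has no reproducible regions, so those values could not be had. The cause of these changes was not tested. Dnmt3b, Tet2 and Tet3, whose groups did not overlap, kept the sign of their rank difference in every alternative run. With a library left out the sign could not change, since their groups do not overlap. The sign changed 6 times, in 3 genes: Dnmt3l from -17.2 to 1.75 without control 1, Tet1 from -14.0 to 3.10 with GENCODE start sites, and Tdg from 0.48 to -2.41 with −log10 q of at least 5, -4.07 when ranked by fold, -0.73 without control 2 and -0.054 without BPA 2. In all, 105 of 123 rank differences of single genes moved by less than the spread between replicates. No paired analysis was possible because the results are counts and ranks that come from no test, and no label says that libraries of the same number share an animal, litter or day. The lowest pile-up of the set was 14 in control 1 and 72 in BPA 2, both at Dnmt3l, and 19 in control 2 and 21 in BPA 1, both at Tet1.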

Other observations

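Regions away from curated start sites sometimes lay at start sites of other annotations. At Dnmt3a, the region chr12:3833572-3835233, open in all 4 libraries, covered a predicted RefSeq start site at 3834695. The control 2 peak in it, 3833584-3833980, did not reach that site. The region chr12:3824943-3825903, open in both BPA libraries only, lay within 500 bp of a predicted site at 3824521. The Dnmt3a regions chr12:3861329-3862669 and chr12:3866578-3867139, specific to BPA and to controls, lay within 500 bp of GENCODE start sites at 3861021 and 3866191. The shared Tet1 region in intron 2, chr10:62864979-62866705, covered a GENCODE start site at 62865304. Upstream of Zfp57, chr17:36992287-36992972 was called in both BPA libraries only, at ranks of 90.3% and 37.1%, and chr17:36996916-36997444 in both control libraries only, at 68.4% and 33.9%.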
